A study of Mus musculus with 8 samples.

Results

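The response of Brg1-deleted cortical neurons to 1 h of KCl depolarisation was described from open chromatin, by setting the peak list of the basal cultures against that of the KCl-treated cultures. Every peak on chromosomes 1 to 19 entered. The basal list held 19921 peaks and the KCl list 24947, together 44868 of the 98043 peaks in the 4 lists of the series, and a peak was called matched when it overlapped a peak of the other list by at least 1 bp. The neurons were primary cortical cultures from mouse embryos at E16.5, and each library came from 50000 cells. In the deleted cultures, named cKO here, Cre under BAF53b control acted on floxed Brg1 (BAF53bCre Brg1F/F), and the WT cultures served as the other genotype. KCl was used at 50 mM on day 6 in vitro, after 1 µM TTX and 100 µM APV on day 5. TTX blocks sodium channels and APV blocks NMDA receptors, and the labels do not say whether basal cultures received them. Each condition had 2 libraries but 1 list, so no value below carries an error between replicates, no test was possible, and intervals are exact 95% Clopper-Pearson intervals for counting error only.

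Brg1, encoded by Smarca4, is the ATPase of the BAF complexes, which move and evict nucleosomes. BAF53b, encoded by Actl6b, is the actin-like subunit that replaces BAF53a when neurons leave the cell cycle, so a BAF53b-driven Cre acts in neurons and leaves Brg1 intact in other cells of a culture. KCl depolarises the membrane and opens voltage-gated calcium channels, and calcium then signals through calmodulin kinases and calcineurin to CREB, SRF and MEF2. These factors switch on rapid response genes such as Fos, Junb and Egr4 without new protein synthesis, and delayed genes such as Bdnf follow. ATAC-seq marks DNA that the Tn5 transposase can reach, and short fragments come from stretches free of nucleosomes.

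Some of the regions on which the gene-level results turn are printed first, as the 250 bases before the annotated start (RefSeq, GRCm38.p6, 5′ to 3′ on the gene's strand). Junb (chr8:84978749-84978998, minus strand), Egr4 (chr6:85513590-85513839, minus strand), Gadd45b (chr10:80929841-80930090, plus strand), Plk2 (chr13:110394794-110395043, plus strand) and Nr4a1 (chr15:101266596-101266845, plus strand) had a start region open in the KCl list and not in the basal list. Klf4 (chr4:55532476-55532725, minus strand) showed the opposite, and Btg2 (chr1:134079156-134079405, minus strand) was open in both. The Nr4a1 peak was among the lowest of the KCl list, at rank 24536 of 24947 by fold over local background. Cry1 (chr10:85185055-85185304, minus strand) and Patl1 (chr19:11912149-11912398, plus strand) carried the gene-end peaks of largest rise and largest fall in rank. Capitals mark matches to the cyclic AMP response element TGACGTCA, its 5-base core TGACG, the AP-1 site, which reads TGACTCA and on the opposite strand reads TGAGTCA, and the EGR site (GCGGGGGCG or GCGTGGGCG). Both strands were searched for each. A full element contains the core on both strands.
Junb: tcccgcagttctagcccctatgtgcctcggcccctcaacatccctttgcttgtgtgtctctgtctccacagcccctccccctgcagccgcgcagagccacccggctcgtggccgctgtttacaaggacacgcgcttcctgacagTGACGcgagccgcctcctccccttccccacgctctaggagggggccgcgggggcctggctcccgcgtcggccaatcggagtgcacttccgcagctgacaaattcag
Egr4: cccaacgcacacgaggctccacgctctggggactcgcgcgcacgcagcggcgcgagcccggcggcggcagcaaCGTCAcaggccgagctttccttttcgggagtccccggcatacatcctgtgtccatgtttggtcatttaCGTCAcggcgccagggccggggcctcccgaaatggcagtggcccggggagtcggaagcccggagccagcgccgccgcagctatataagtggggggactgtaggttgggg
Gadd45b: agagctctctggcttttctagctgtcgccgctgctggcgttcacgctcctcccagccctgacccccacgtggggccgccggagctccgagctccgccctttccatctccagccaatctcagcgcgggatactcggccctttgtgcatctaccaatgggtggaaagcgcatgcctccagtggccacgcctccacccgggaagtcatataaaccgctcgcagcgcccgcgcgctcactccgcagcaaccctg
Plk2: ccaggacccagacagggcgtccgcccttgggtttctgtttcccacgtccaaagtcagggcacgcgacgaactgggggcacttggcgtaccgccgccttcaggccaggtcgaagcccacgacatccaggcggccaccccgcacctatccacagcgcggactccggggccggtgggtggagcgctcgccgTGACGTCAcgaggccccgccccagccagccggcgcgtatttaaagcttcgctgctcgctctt
Nr4a1: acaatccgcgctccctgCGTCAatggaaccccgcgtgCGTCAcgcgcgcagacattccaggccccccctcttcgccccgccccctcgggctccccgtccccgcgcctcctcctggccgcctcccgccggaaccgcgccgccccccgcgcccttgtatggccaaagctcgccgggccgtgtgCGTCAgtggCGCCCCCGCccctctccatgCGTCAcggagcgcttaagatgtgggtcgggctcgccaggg
Klf4: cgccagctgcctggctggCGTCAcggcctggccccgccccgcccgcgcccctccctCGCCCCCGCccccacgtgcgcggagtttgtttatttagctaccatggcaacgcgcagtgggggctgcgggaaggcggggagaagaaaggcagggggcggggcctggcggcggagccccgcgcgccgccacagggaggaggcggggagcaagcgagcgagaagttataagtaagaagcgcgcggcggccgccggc
Btg2: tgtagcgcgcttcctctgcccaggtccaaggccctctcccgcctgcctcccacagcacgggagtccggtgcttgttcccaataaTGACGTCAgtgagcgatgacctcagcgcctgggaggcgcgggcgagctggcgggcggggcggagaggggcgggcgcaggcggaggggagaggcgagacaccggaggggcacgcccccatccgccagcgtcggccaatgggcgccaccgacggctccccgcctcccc
Cry1: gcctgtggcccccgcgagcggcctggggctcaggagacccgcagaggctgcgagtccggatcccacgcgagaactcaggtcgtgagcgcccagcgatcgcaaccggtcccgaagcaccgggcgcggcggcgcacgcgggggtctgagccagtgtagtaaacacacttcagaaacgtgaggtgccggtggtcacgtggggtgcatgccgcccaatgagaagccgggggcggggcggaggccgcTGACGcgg
Patl1: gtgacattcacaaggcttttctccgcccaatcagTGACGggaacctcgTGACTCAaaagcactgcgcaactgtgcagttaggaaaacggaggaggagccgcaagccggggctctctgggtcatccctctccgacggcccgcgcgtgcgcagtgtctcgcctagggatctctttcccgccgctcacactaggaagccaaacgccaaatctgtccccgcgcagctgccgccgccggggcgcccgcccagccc

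Plk2 and Btg2 held the full cyclic AMP response element, 62 and 166 bases before their starts. Junb held the core once, 106 bases before the start, and Egr4 held it 109 and 177 bases before. Nr4a1 held 4 cores, 40, 69, 213 and 233 bases before its start, and an EGR site at 60. Klf4, open in the basal list, held a core at 232 and an EGR site at 194, Patl1 held an AP-1 site at 202, and Gadd45b held none of these letters. The start regions of Ptgs2 and Atf3, also open in the KCl list only, are not printed. Ptgs2 held none of these letters and Atf3 held a core at 7. Over the 16457 genes with a start window of 300 bases (250 before and 50 after the start), 2.38% held the full element, 24.4% the core, 4.62% an AP-1 site and 4.73% an EGR site. A match is a description of the sequence and not a bound site.

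The cKO lists differed in length and in height. The KCl list was 1.25 times as long as the basal list and covered 8.89 Mb against 6.69 Mb. Its median fold over local background was 3.08 against 2.88, and its 90th percentile was 4.70 against 4.17. Peaks above 4-fold numbered 4640 of the KCl list (18.6%) and 2342 of the basal list (11.8%). The longer list was the shallower: the most frequent background was 8.36 fragments in the KCl list and 9.47 in the basal list, so the lowest summit pileup called was 20 against 22 fragments. The KCl list was longer on each of the 19 chromosomes, from 1.19 times on chromosome 19 to 1.33 times on chromosome 16. The part of depth and of how the libraries were combined in these differences was not tested.

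Of the KCl peaks, 15041 had no overlapping basal peak, a share of 60.3%, and of the basal peaks 9906 had no overlapping KCl peak, a share of 49.7%. Unmatched peaks were mostly low. Their median fold was 2.89 in the KCl list and 2.68 in the basal list, where matched peaks had 3.74 and 3.25. They were also narrower, with median widths of 248 and 239 bp against 419.5 and 352 bp. A peak of the other list lay within 500 bp of 1117 unmatched KCl peaks (7.43%) and of 826 unmatched basal peaks (8.34%). A site absent from a list fell below the caller's threshold there and has no value in that list.

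At matched fold, KCl peaks were more often unmatched than basal peaks. Each KCl peak was set against 19921 basal peaks and each basal peak against 24947 KCl peaks. The part of list length in the excess was not tested. Between 3- and 3.5-fold, 64.6% of KCl peaks and 39.6% of basal peaks had no counterpart. Between 4- and 5-fold the counts were 446 of 2769 (16.1%) and 12 of 1618 (0.742%). Above 5-fold, 45 KCl peaks and 1 basal peak were unmatched. Ranked within each list, the top 10% held 3.73% unmatched KCl peaks and 0.351% unmatched basal peaks, and the lowest 10% held 86.4% and 77.4%. The gap in percentage points was widest between 3.5- and 4-fold, with 40.6% of KCl peaks and 10.2% of basal peaks unmatched. By site class over the whole lists, 32.4% of KCl gene-end peaks and 19.1% of basal ones were unmatched. The shares were 76.4% and 68.7% for intragenic sites and 80.6% and 74.7% for intergenic sites, so gene ends were the class most often matched and the class with the widest gap.

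**Figure D1:**
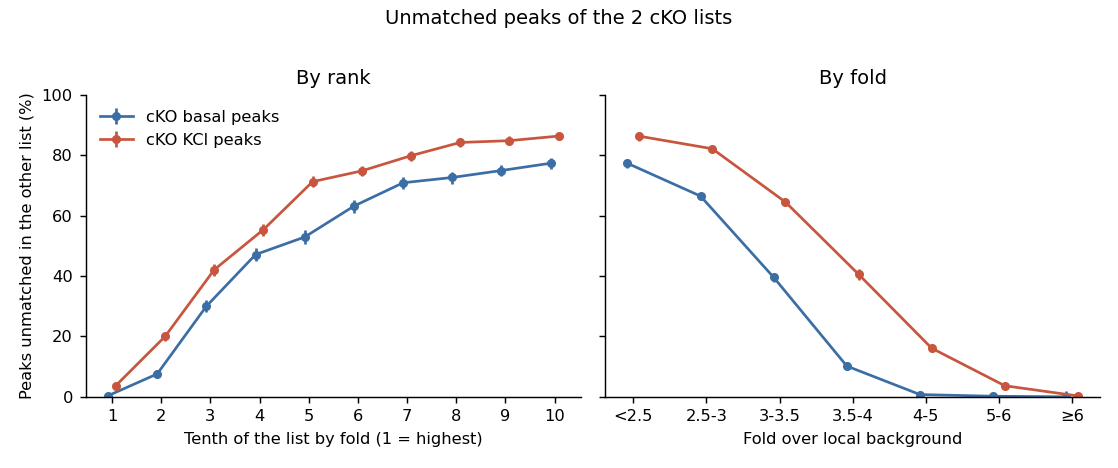
Share of peaks without an overlapping peak in the other cKO list (percent, with exact 95% intervals), in 10 equal groups ranked on fold (left) and by fold over local background (right). The KCl points lie above the basal points in every rank group and in every fold bin, and both lists approach 0 above 6-fold.

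The 2000 peaks of highest fold in each list were set against the whole of the other list. Of the KCl peaks, 52 were unmatched (2.6%, interval 1.95 to 3.40%), and of the basal peaks 7 were (0.35%, interval 0.141 to 0.720%). Gene ends, defined as sites no more than 1 kb from the start or end of a protein-coding gene model, gave 31 of 1591 KCl peaks and 1 of 1595 basal peaks. Intragenic sites gave 12 of 268 and 4 of 263, and intergenic sites 9 of 141 and 2 of 142. The KCl excess thus stood in all 3 classes, with intervals that did not overlap for gene ends (1.33 to 2.75% and 0.00159 to 0.349%) and that overlapped for the others. Among WT lists the corresponding counts were 20 KCl peaks and 42 basal peaks, where the basal list is the longer one. In cKO the KCl list is the longer one.

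The lists were also set against each other at equal length, where nearly one-to-one matching makes the 2 overall unmatched shares close by construction, so their level and their split by site class are the description. Setting the top 2000 peaks of each list against each other left 33.05% of KCl and 32.75% of basal peaks unmatched, and the top 5000 left 32.2% and 31.5%. At the full length of the basal list, 19921 peaks, the shares were 53.9% and 53.0%. By class at that length, gene ends had 27.0% unmatched KCl peaks and 22.6% unmatched basal peaks, intragenic sites 71.2% and 71.9%, and intergenic sites 78.1% and 77.8%. The gap was widest at gene ends, and the number of gene-end peaks moved with it: gene ends made up 43.1% of the KCl list and 41.3% of the basal list at that length, and 79.55% and 79.75% of the top 2000.

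**Figure D2:**
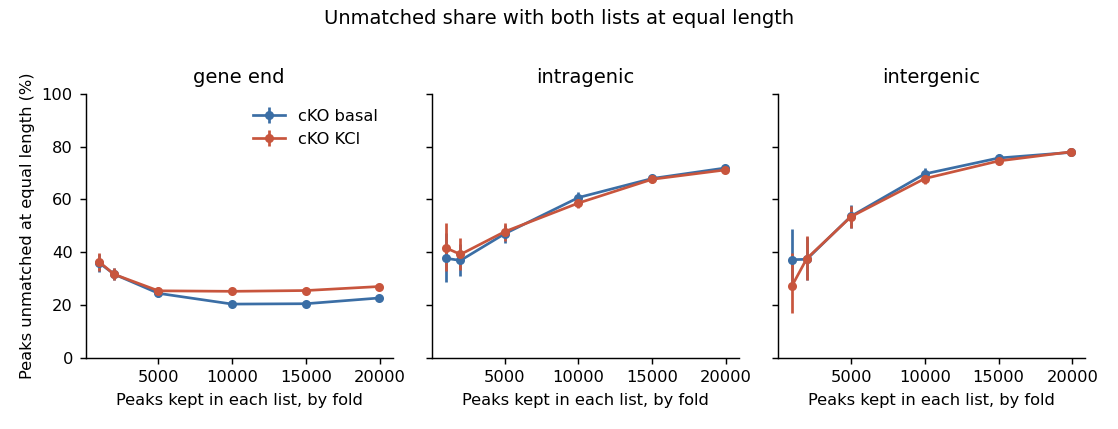
Share of peaks unmatched (percent, with exact 95% intervals) when both cKO lists are kept to the same number of peaks of highest fold, by site class. The lines run together for intragenic and intergenic sites, and for gene ends the KCl line lies above the basal line at 10000 peaks and more, reaching 27.0% against 22.6%.

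Unmatched sites were rarely promoters. Gene ends made up 66.5% of matched basal peaks, 15.9% of unmatched basal peaks and 21.0% of unmatched KCl peaks. By the stranded start windows, 1655 unmatched KCl peaks (11%) and 564 unmatched basal peaks (5.69%) overlapped a start, against 52.4% and 51.1% of matched peaks. In the top 2000 of each list, 70.85% of KCl peaks and 70.4% of basal peaks overlapped a start.

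The 10 highest unmatched KCl peaks at gene ends had folds from 5.24 to 5.88. They lay at Mettl14, a subunit of the RNA adenosine methyltransferase (5.88), Palb2, which binds BRCA2 during DNA repair (5.77), and Donson, a replication fork protein (chr16:91688577-91689289, 5.35). AW146154 had 5.88, and Actr6, an actin-related protein of chromatin remodelling, Pnpt1, a mitochondrial RNA-processing enzyme, and Zfp101, a zinc-finger gene, each had 5.34. Acbd5, which tethers peroxisomes to the endoplasmic reticulum, Tomm7, a subunit of the mitochondrial protein import pore, and Btf3, which binds nascent proteins, each had 5.24. Their summit pileups were 48 to 54 fragments. No rapid response gene was among these gene ends.

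Inside genes, the highest unmatched KCl peaks lay in Sox5, a transcription factor of deep-layer cortical neurons (6.07), and Clcn3, a vesicular chloride transporter (5.99). Wls, which carries Wnt ligands to the cell surface, had 5.45, Foxn3, a forkhead repressor, 5.36, and Map2k6, a kinase upstream of p38, 5.22. Cbx5, the gene of heterochromatin protein HP1 alpha, had 5.13 (chr15:103215207-103215526). Between genes, the highest unmatched KCl peak had 6.09 and lay 176.1 kb from its nearest gene, Pex2. Those nearest Rad23b and Arl4a each had 5.56, and that nearest Cd209a 5.34. The peaks nearest Prim2, Tmem182 and Nr2f1, a nuclear receptor that patterns the cortex, each had 5.24. The Nr2f1 peak lay 228.9 kb from the gene. The Clcn3, Cbx5 and Tmem182 sites had no peak in either WT list, and the other sites of this group had a WT basal peak.

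Unmatched basal peaks were lower in each class. At gene ends they reached 4.22 at Zscan25, 4.10 at Pelp1, a nuclear receptor coregulator, and 3.93 at Zfp30. Tram1 and Tomm5, which act in protein translocation into the endoplasmic reticulum and into mitochondria, and Purb, a nucleic acid binding protein, each had 3.92. Intragenic sites reached 4.49 in Nxpe4 and 4.39 in Tafa2, which encodes a secreted protein of the nervous system. A single unmatched basal peak passed 5-fold, at 5.06, in an intergenic region whose nearest gene, Stmn2, lay 263.9 kb away.

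The stronger an unmatched KCl peak was, the more often it overlapped a WT peak. Of the 52 among the top 2000, 47 overlapped a WT basal peak, 36 a WT KCl peak and 3 neither. Of the 489 above 4-fold, 363 (74.2%) overlapped a WT basal peak and 259 (53.0%) a WT KCl peak. Of all 15041, 26.0% overlapped WT basal, 15.8% WT KCl and 68.0% neither. The WT basal list is the longest of the 4, with 33328 peaks against 19847 for WT KCl, so it offers more peaks to overlap. At gene ends, 49.0% of unmatched KCl peaks overlapped WT basal and 37.3% WT KCl. Of unmatched basal peaks 77.4% overlapped neither WT list. Among the top 25% of each list, 287 of 6236 KCl peaks (4.6%) and 226 of 4980 basal peaks (4.54%) overlapped no peak of the other 3 lists, so these shares were nearly equal.

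Sites shared by both lists were higher after KCl. At 9090 sites where 1 basal peak met 1 KCl peak, the median fold was 3.25 in the basal list and 3.75 in the KCl list. Summit pileup divided by the list's floor background had a median KCl to basal ratio of 1.19, with a 10th percentile of 0.937 and a 90th of 1.52. It was higher after KCl at 7447 sites (81.9%). Fold over local background was more than 1.5 times higher after KCl at 612 sites, and lower by more than 1.5 times at 18. Gene ends had the larger pileup ratio, 1.21, against 1.16 for intragenic and 1.13 for intergenic sites. With the sites in 5 equal groups by mean level, the ratio went from 1.09 in the lowest group to 1.25 in the highest, and grouped by basal level alone it went from 1.25 to 1.17, so the trend turned with the grouping. Sites were wider after KCl as well, with a median of 414 bp against 350 bp, and summits lay a median of 50 bp apart. A site had to pass the caller's threshold in both lists to be counted here. Fold correlated between the lists across the shared sites (Spearman 0.718), which share the genome and not the libraries.

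**Figure D3:**
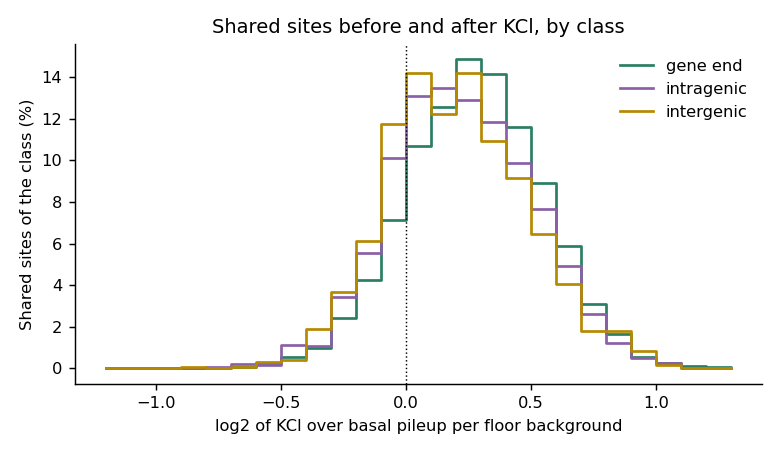
Distribution of the log2 ratio of summit pileup per floor background, KCl over basal, at the 9090 shared cKO sites, as a percentage of the sites of each class. The bulk of each curve lies to the right of the dotted line at equal level, and the gene-end curve lies farthest to the right.

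Rank among the shared sites removes the overall shift in level. Cry1, a repressor of the circadian clock, had the largest rise, from 2.5 to 5.96 in fold and from 28 to 60 fragments. Its WT folds were 5.84 basal and 4.32 after KCl, so the cKO basal value was the low value of the 4. Tyw3, a tRNA-modifying enzyme, went from 2.39 to 5.27 (WT 3.69 and 3.41), and Dop1a, a Golgi trafficking gene, from 2.48 to 5.09 (WT 3.11 and 3.90). Disp3, a sterol-sensing membrane protein, went from 2.23 to 4.6, and Cplane1, a ciliary gene, from 2.77 to 5.92. Each of these peaks lay at a gene end. The rise at an intragenic site with the fifth largest shift belonged to Npas4, described below with the rapid response genes.

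Other sites of large rise lay at Arpp21, a cyclic AMP-regulated phosphoprotein of neurons (2.48 to 4.70), Abhd10, a mitochondrial esterase (2.58 to 4.92), and an intergenic site 1.8 kb from Cldn11 (2.63 to 5.05). Pileup ratios reached 2.43 among the rises and 0.556 among the falls. Patl1, a component of mRNA decay, went from 5.35 to 2.90 and from 55 to 27 fragments, where WT had 4.27 and 4.84. Slc44a1, a choline transporter, went from 4.39 to 2.61, and Tank, an adaptor of innate immune signalling, from 4.30 to 2.57 (WT 3.89 and 3.25). Nrxn3, a presynaptic adhesion gene, went from 4.84 to 3.02 (WT 4.43 and 3.18) and Noa1, a mitochondrial GTPase, from 4.50 to 2.94 (WT 5.81 and 3.24). Tank, Nrxn3 and Noa1 had the higher fold basally in WT too.

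Genes were counted by whether a gene-end peak was present. Of 20665 protein-coding genes, 2307 had one in the KCl list and not in the basal list (11.2%), 970 had one in the basal list and not in the KCl list (4.69%), and 35.3% had one in both. At equal length these shares were 8.61% and 6.26%. Counting peaks within 50 kb of the gene body, 43.6% of genes had more in the KCl list and 21.2% fewer, and at equal length 29.8% had more and 32.2% fewer. These are the shares against which each list below is read. A gene could count as open in 1 list although its peak overlapped a peak of the other list just beyond the 1 kb window, which held for 47 of the 2307 genes and 18 of the 970. Gene-end folds below are the highest of each list, and at 6699 of 7299 genes with both (91.8%) they came from overlapping peaks.

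Rapid response genes, the transcription factors and regulators induced within an hour of activity, had 6 of 24 members with a gene-end peak in the KCl list only and 1 in the basal list only. At equal length the counts were 4 and 4. The 6 were Junb (2.93 at chr8:84978580-84979022), Egr4 (3.09 at chr6:85513586-85513831), Gadd45b (3.02 at chr10:80929871-80930095), Egr3 (2.59), Atf3 (2.98 and 2.81) and Zfp36 (2.14). Junb belongs to the AP-1 factors, Egr3 and Egr4 to the EGR zinc-finger factors, Gadd45b acts in DNA demethylation and stress signalling, Atf3 is a stress-induced factor and Zfp36 destabilises mRNA. The Zfp36 peak lay 0.949 kb beyond the gene body. The Junb summit lay 0.068 kb after the annotated start and the Gadd45b summit at −0.111 kb, before it.

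In WT the same 6 genes divided. Junb and Gadd45b had a gene-end peak after KCl (2.53 and 3.10) and none basally. Atf3 had one in both WT lists (2.39 and 2.71). Egr3, Egr4 and Zfp36 had none in either. The member with a basal peak alone in cKO was Klf4, a zinc-finger factor, at 2.73 and 2.76, and WT had a Klf4 peak in both lists (3.58 and 3.23).

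The 11 members with a gene-end peak in both cKO lists showed both directions. Fos had 2.19 basally and 2.89 after KCl, where WT had 3.5 and 2.88. Btg2, an antiproliferative regulator, had 3.06 and 4.17 (WT 3.32 and 4.0), Fosl2 2.78 and 3.73, and Nr4a3, an orphan nuclear receptor, 2.31 and 3.39. Egr1 had 3.24 and 3.40, and Ier2 2.53 and 2.60 at different sites. The remaining 5 were lower in the KCl list: Jun with 3.95 and 3.79, Ier5 with 4.07 and 3.40, Dusp1, a MAP kinase phosphatase, with 2.76 and 2.45 at different sites, Maff with 3.19 and 3.11, and Arc, an endocytic regulator at synapses, with 2.13 and 1.91. Fosb, Egr2, Npas4, Nr4a1, Ccn1 and Sik1 had no gene-end peak in either cKO list. Nr4a1 had a peak over the annotated start window, inside the longer gene model, at 2.28 in the KCl list alone. This Nr4a1 peak dropped out of the KCl list at equal length.

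Within 50 kb the rapid response genes had 74 peaks in the basal list and 96 in the KCl list. More peaks after KCl were present at 16 of 24 members and fewer at 5, and at equal length at 8 and 12, so this count turned with list length. The median net change was 1, and 0 over all genes. Egr2 had 1 basal and 6 KCl peaks, Junb 3 and 7, Nr4a1 3 and 6, Btg2 2 and 5, Atf3 1 and 4, Fos 4 and 6, and Klf4 5 and 2. At equal length each of these genes lost low KCl peaks. Egr2 lost those of 2.49, 2.545 and 2.55, and Junb those of 2.38, 2.43 and 2.54. WT had 4 and 4 at Egr2, 5 and 3 at Junb, and 6 and 4 at Fos.

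Away from the genes' own ends, 33 of 74 KCl peaks within 50 kb (44.6%) overlapped a basal peak, and 33 of 57 basal peaks (57.9%) overlapped a KCl peak. Of these 33 shared sites, 22 (66.7%) had the higher fold in the KCl list and 11 the lower, against 76.8% higher over all shared sites. Some of the 33 lay at the ends of neighbouring genes, among them the Egr2 and Maff sites and the 30.8 kb Junb site named below. A site 18.3 kb outside the Fos gene body (chr12:85455111-85455604 in the KCl list) had 4.42 basally and 4.89 after KCl. The intragenic Npas4 site, with its summit at −12.0 kb from the start (chr19:5001755-5002086), had 2.37 and 4.66, with pileups of 30 and 53 fragments, and WT had 3.57 and 4.24. Npas4 is a neuron-specific factor that depends on calcium entry for its expression. A site 7.25 kb outside the Nr4a1 gene model had 3.48 and 4.92. The site 11.1 kb after the Egr2 start had 3.69 and 4.47, and the site 18.2 kb outside Maff had 3.57 and 4.72. These 5 sites, chosen after their values were seen, had the higher fold in the KCl list. Among the 11 lower ones, the sites 10.6 and 30.8 kb outside Junb went from 3.62 to 2.38 and from 3.6 to 2.81. The site 12.6 kb outside Ier5 had 3.93 and 3.45, that 41.0 kb outside Atf3 3.09 and 2.59, and that 15.8 kb outside Nr4a3 3.06 and 2.62. Over the 44 shared sites near rapid response genes the median pileup ratio was 1.19, equal to that of all shared sites. By pileup, 31 of the 44 (70.5%) were higher after KCl, a lower share than the 81.9% of all shared sites.

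**Figure D4:**
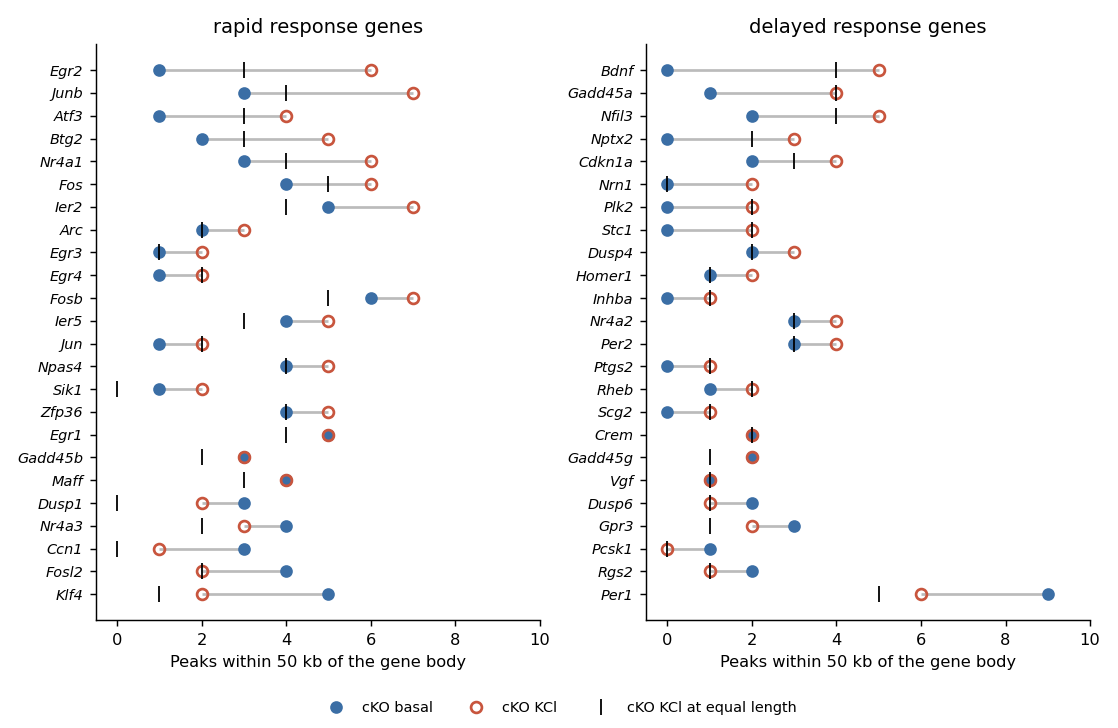
Number of peaks within 50 kb of the gene body in the cKO basal list (filled) and the cKO KCl list (open), with the KCl count at equal list length (vertical bar), for the 24 rapid response and 24 delayed response genes. In the whole lists Egr2, Junb and Bdnf show the widest increases, and Klf4 and Per1 fewer peaks after KCl. The vertical bars of Egr2, Junb and Bdnf lie at lower counts than their open points.

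Delayed response genes, which act at synapses and in growth, had 3 of 24 members with a gene-end peak in the KCl list only and 2 in the basal list only, the same at equal length. Peaks within 50 kb numbered 37 basally and 60 after KCl, with more at 16 members and fewer at 5. At equal length 11 members had more and 6 fewer. Bdnf, the neurotrophin of activity-dependent synapse growth, had 0 basal peaks and 5 KCl peaks, all intragenic, at folds of 3.02, 3.13, 3.36, 2.62 and 2.99. The peak at 3.36 spanned chr2:109693490-109693929 and its summit lay 0.671 kb from the nearest annotated start. WT had 2 basal and 3 KCl peaks there. At equal length 4 of the 5 remained.

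Nptx2, a pentraxin that clusters AMPA receptors, had 0 and 3 peaks, with a gene-end peak of 3.15 after KCl (WT 2.58 and 3.23). Plk2, a kinase of synaptic scaling, had gene-end peaks of 3.42 and 3.85 after KCl and none basally, where WT had one in both lists (2.77 and 3.95). Ptgs2, the inducible cyclooxygenase, had 3.42 after KCl and none basally, and its WT peak was basal (2.52). Gadd45a had 4.36 and 5.49 and Nr4a2 2.67 and 4.17. Rgs2, a G-protein regulator, had 6.41 and 7.27, the highest gene-end fold of this list in both states. Lower after KCl were Crem, with 5.94 and 5.44, and Homer1, a postsynaptic scaffold, with 5.16 and 4.52. Per1, a clock gene, had 9 and 6 peaks within 50 kb. Of 21 shared sites near these genes, 20 (95.2%) had a pileup ratio above 1 and 6 (28.6%) a higher rank after KCl, against 81.9% and 49.3% of all shared sites.

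Genes of calcium entry and CREB signalling had 4 of 40 members with a KCl-only gene-end peak (Cacna1g, Camk2b, Crtc3 and Mef2d) and 1 with a basal-only peak (Camk1), and at equal length 1 and 2, so this order turned. More peaks within 50 kb were present after KCl at 28 and fewer at 8, and at equal length at 21 and 14. The largest net changes lay at long channel genes: Cacna2d3 had 2 and 9 peaks, Cacna1c 6 and 12, Cacna1d 3 and 8, and Cacna1a 4 and 9. These encode voltage-gated calcium channel subunits. In WT the order was opposite, with 13 and 3 at Cacna2d3 and 13 and 4 at Cacna1c. At gene ends, Ppp3cb, a calcineurin catalytic subunit, had 3.06 and 5.13, and Creb1 had 5.67 and 6.69.

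Genes of the BAF complexes were examined because their ATPase was deleted. Smarca4 itself had a gene-end peak in all 4 lists, 5.21 and 5.62 in cKO and 4.89 and 5.32 in WT. A peak at a gene end does not report the deletion of internal exons, so these lists do not check the genotype. Its paralogue Smarca2 had 4.06 and 5.21 in cKO and 5.59 and 4.05 in WT. Gene-end peaks were present in the KCl list only at 5 of 31 members (Smarcb1 2.70, Smarcd3 2.44, Smarce1 3.63, Bcl11a 2.80 and Ss18 3.63) and in the basal list only at 3 (Actl6b 2.63, Dpf2 3.87 and Brd7 3.01). The Ss18 peak overlapped a basal peak of 3.57 that stopped short of the 1 kb window, so that site was open in both lists. Smarcb1 and Smarce1 encode core subunits, Ss18 is replaced by Ss18l1 in neurons, and Actl6b encodes BAF53b, the gene that drives the Cre. Peaks within 50 kb numbered 147 and 148, with more at 11 members and fewer at 11. At equal length 5 had more and 17 fewer. Dpf3, a histone-reading subunit of neuronal BAF, had 3 and 7 peaks. A peak of 4.92 over its gene end in the KCl list (chr12:83487761-83488037) had no basal counterpart, and the basal gene-end peak of 2.62 overlapped a KCl peak of 2.51.

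Marker genes were compared with the labelled cell type. Of 17 pan-neuronal markers, 9 had a gene-end peak in both cKO lists, among them Map2 with 4.79 and 4.66 and Syt1, a synaptic vesicle calcium sensor, with 4.30 and 6.52. The excitatory neuron list had 12 of 22 in both and none in 1 list alone. At equal length 0 of the 22 had one in the KCl list only and 2 (9.09%) in the basal list only. The shares of all genes there were 8.61% and 6.26%. Microglial markers had 0 of 10 in either list. Astrocyte markers had 3 of 10 in both, oligodendrocyte markers 2 of 9, and vascular markers 2 of 10. Tubb3, the neuronal tubulin, had 2.19 and 3.92 at different sites.

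In the whole lists, neural progenitor genes had the highest share of KCl-only gene-end peaks of the 16 lists, 5 of 16 (31.2%), and none with a basal peak alone. They included Hes5 (2.44) and Notch1 (2.36) of the Notch pathway, Neurog2 (3.31), a proneural factor, and Id1 (3.5), an inhibitor of such factors. The Neurog2 peak overlapped a basal peak beyond the window. At equal length the counts were 3 (18.75%) and 2, and the vascular list had the higher share, 2 of 10 (20%). Each of these named genes had a gene-end peak in the WT basal list. Within 50 kb, 14 of 16 members had more peaks and 1 fewer, and at equal length 10 and 3. Nes, an intermediate filament of neural stem cells, had 3 and 8 peaks and Eomes, a marker of intermediate progenitors, 1 and 5. The inhibitory neuron list had 5 of 17 members in the KCl list only (Gad1, Dlx2, Dlx5, Calb1 and Calb2) and 3 in the basal list only (Dlx1, Sp8 and Nxph1), and 3 and 3 at equal length. Gad1 makes GABA, the Dlx genes specify interneurons, and Calb1 and Calb2 are calcium-binding proteins. Cell-cycle genes, a sign of dividing cells, had 2 of 15 in the KCl list only and 1 in the basal list only. A change in the mix of cells and a change within cells cannot be told apart in these bulk lists.

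**Figure D5:**
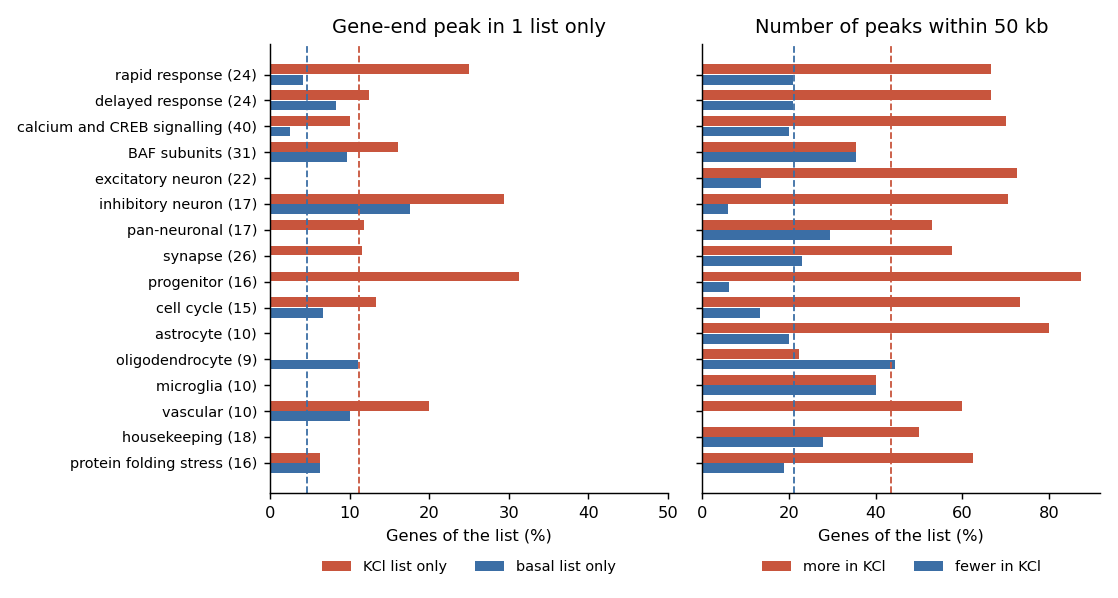
Percentage of the genes of each list with a gene-end peak in 1 cKO list only (left) and with more or fewer peaks within 50 kb after KCl (right). List sizes stand in parentheses, and dashed lines give the shares of all 20665 protein-coding genes, 11.2% and 4.69% on the left and 43.6% and 21.2% on the right.

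Synapse genes had 3 of 26 members with a KCl-only gene-end peak (among them Grm5 3.85 and Bsn 2.92) and none with a basal-only peak. Grm5 is a glutamate receptor and Bsn a presynaptic scaffold. The KCl-only share, 11.5%, was near the 11.2% of all genes. Within 50 kb, 15 members had more peaks after KCl and 6 fewer. At equal length 6 had more and 12 (46.2%) fewer, against 29.8% and 32.2% of all genes, so this count turned. Grin2a, an NMDA receptor subunit, had 2 peaks within 50 kb in the basal list and 11 in the KCl list, and 10 at equal length. Bsn had 4 and 9, and 4 at equal length. Shank3, a postsynaptic scaffold, had 6 and 3, and Gria1, an AMPA receptor subunit, had 2 and 0. Stmn2, a microtubule regulator of axons, had 4 and 0 peaks within 50 kb.

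Over all genes, the largest net rise lay at Kalrn, an exchange factor that shapes dendritic spines (chr16:33969073-34573277), with 8 basal and 22 KCl peaks, and 19 at equal length. Nfia, a factor of neural differentiation, had 7 and 16, and 15 at equal length. Ptprn2, a protein of secretory vesicles, had 5 and 16, but 7 at equal length, and Tns3 had 7 and 16, but 8. In WT, Kalrn had 18 and 9 and Nfia 17 and 6. The largest net falls lay at Trak1, which links mitochondria to motors, with 13 and 5 (WT 10 and 4), Trerf1 with 11 and 4, and Def6 with 9 and 2. In the whole lists falls did not reach the size of the rises. At equal length Cwc22, a splicing factor gene, fell by 38, which exceeded the largest rise, 11 at Kalrn. Cwc22 had 42 basal and 39 KCl peaks, a net change of −3, and 4 at equal length. Most of its fall thus came from low KCl peaks that shortening the list removed. Trak1 and Itln1 each fell by 10 at equal length. Kalrn, Nfia and Grin2a kept most of their extra peaks at equal length, while those at Ptprn2 and Tns3 were mostly low peaks that shortening the list removed.

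Gene length moved with the net count. Genes under 10 kb had a mean net change of 0.434 peaks and genes over 300 kb 1.28, from 3.58 to 4.86. At equal length the means were −0.085 and 0.386. Of the genes over 300 kb, 60.8% had more peaks and 20.1% fewer. Since many neuronal channel, adhesion and synapse genes are long, their counts are read beside this, and the part of length in them was not tested.

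The start windows were grouped by the list in which they were open: 5409 in both, 1735 in the KCl list only, 589 in the basal list only and 8724 in neither. The full cyclic AMP response element was present in 3.92% of windows open in both, 3.40% of KCl-only windows (interval 2.60 to 4.36%), 2.55% of basal-only windows (interval 1.43 to 4.17%) and 1.22% of closed windows. The core was present in 37.4%, 30.7%, 29.9% and 14.6%. AP-1 sites stood in 2.48%, 3.29%, 3.06% and 6.32%, and EGR sites in 7.69%, 7.15%, 6.28% and 2.30%. The intervals of KCl-only and basal-only windows overlapped for each of these 4 motifs. Closed windows had the lowest share of 3 of them and the highest share of AP-1 sites. For the core, windows open in both (interval 36.1 to 38.7%) also stood above KCl-only (28.6 to 33.0%) and basal-only windows (26.2 to 33.8%).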

How the data were processed

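ATAC-seq of nucleosome-free fragments was analysed from 1 deposited peak list for each condition of 2 libraries. Per the submitters' processing notes, reads were handled with Bowtie2 and MACS2 on GRCm38 (mm10). Tool versions, settings, duplicate removal and how the 2 libraries entered a list were not stated in the sources used here. The authors deposited, for each peak, the summit position, a score, a ratio (fold over local background), and p-values and q-values as −log10. Depth was stated only as 60 M paired-end reads of 75 bp per library, per the labels. A whole-number summit pileup that gives the deposited fold and −log10 p within 0.001 was recovered for 100% of peaks, with the local background.

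Peaks of 2 lists were matched by an overlap of at least 1 bp. Genes were 20665 protein-coding genes of RefSeq GRCm38.p6 on chromosomes 1 to 19, without strand, so a gene end lay within 1 kb of either end. The fixed design had named start sites as well, and stranded windows (250 bases before to 50 after a start) existed for 16457 genes (79.6%). Pileups were divided by the most frequent background of the list. No test compares conditions, and p-values across genes were not used. The members, gene lists and tests were chosen with earlier results of these data known. Named were all rapid response genes, members of other lists with a gene-end peak in 1 list or of largest net change, and the 10 sites or genes of largest value in each ranking, some left out for length. Some list members are not reported here. The overlap and pileup steps were tested on simulated data. Python 3.11.15, pandas 2.3.3, numpy 2.4.6, scipy 1.17.1 and matplotlib 3.10.9 were used. Columns of no sample numbered 0. Alternatives changed the overlap, list length, ranking, q threshold, chromosomes, gene-end distance and window.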

Additional observations from a re-analysis of the deposited data

Results flagged for a closer look

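The cKO and WT lists moved in opposite directions with KCl, which was not tested because each condition has 1 list. The KCl list was 1.25 times as long as the basal list in cKO and 0.596 times as long in WT. At sites shared by the basal and KCl lists of a genotype, the median ratio of summit pileup per floor background was 1.19 in cKO (9090 sites) and 0.939 in WT (9353 sites). Kalrn, an exchange factor of dendritic spines, had 14 more peaks within 50 kb after KCl in cKO and a net change of −9 in WT. Nfia, a factor of neural differentiation, had 9 more in cKO and a net change of −11 in WT. The WT basal list, with 33328 peaks, is the longest of the 4, and its part in these differences was not tested.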

How the results depend on the processing

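No paired analysis was possible because there is 1 deposited list per condition of 2 libraries, so leaving out a replicate and a replicate block could not be run either. Under the alternatives run, 57 values stayed close to the reported ones and 29 moved. A count was called close when it differed by no more than 1.5 times, and a share when it lay inside the reported interval. A close count can therefore still differ widely or rest on other genes. The cause was not tested except where fewer peaks enter. With 10000 peaks in each list, KCl peaks were 40.3% unmatched and basal peaks 39.5%, 84.7% of shared sites had the higher fold after KCl, against 76.8% in the whole lists, 1467 genes had a KCl-only gene-end peak, 4557 had more peaks within 50 kb and 4592 fewer, and rapid response genes numbered 2 (Fosl2 and Nr4a3) and 7. At equal length by fold, unmatched shares were 53.9% and 53.0%, the shared-site share 80.3%, genes with fewer peaks 6647 against 6158 with more, rapid response genes with a basal-only gene-end peak 4 and those with more peaks 8. Ranked by −log10 p, these were 53.0%, 52.2%, 79.8%, 2 rapid response genes with a basal-only peak and 10 with more peaks. With −log10 q of at least 5, the shares were 51.5%, 27.0% and 79.7%, genes with a basal-only gene-end peak numbered 576 and genes with fewer peaks 2099. The 6 rapid response genes with a KCl-only gene-end peak then held Fos and Nr4a3 in place of Egr3 and Zfp36. With −log10 q of at least 2, 2 rapid response genes had a basal-only peak, and with gene ends within 2 kb 0 had. An overlap of at least 50% of the shorter peak gave 62.3% and 52.2%, and allowing 500 bp gave 55.8% and 45.6%. The order of genes with more and with fewer peaks thus turned, from 9002 and 4387, at equal length by fold and with 10000 peaks. That order did not turn at equal length by −log10 p, where 6435 genes had more peaks and 6274 fewer. The overlap rule cannot change counts per gene. Counts of rapid response genes losing a peak or gaining peaks nearby, of genes with fewer peaks, of unmatched peaks among the top 2000 and of higher shared sites were added after seeing the data.

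Median summit pileups were 33 fragments in the basal list and 31 in the KCl list, against lowest called values of 22 and 20. Whether a peak of a single gene would be called again was not measured.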

Other observations

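The start windows of genes differed in base composition by state. Windows open in both cKO lists had a median GC content of 64.7%, windows open in the KCl list only 61.0%, windows open in the basal list only 61.7% and closed windows 50.0%. The SP1 box GGGCGG, typical of housekeeping promoters, was present on either strand in 76.5%, 64.0%, 64.5% and 26.5% of them, and the ETS site CCGGAAG in 21.5%, 17.2%, 15.6% and 5.70%. The TATA letters TATAAA had the reverse order, with 4.03%, 6.97%, 6.45% and 20.7%. KCl-only and basal-only windows thus lay close to each other and between the other states for GC content and these 3 motifs.

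Protein folding genes held their gene-end peaks in both lists at 12 of 16 members. Hspa8, the constitutive HSP70 chaperone, had 5.36 basally and 7.11 after KCl (WT 6.40 and 4.75), Hspa5, the chaperone of the endoplasmic reticulum, 6.00 and 6.52, and Xbp1, a factor of the unfolded protein response, 3.54 and 4.82. Hsp90aa1 had 4.40 and 3.78. Hspa1a had a gene-end peak in the basal list only (2.48) and its near-identical neighbour Hspa1b in the KCl list only (2.89), and reads of this pair may not be told apart. Housekeeping genes had a gene-end peak in both lists at 15 of 18 members and in 1 list alone at 0.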
